A study of Mus musculus with 9 samples.

Results

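The genes of sterol and fatty acid synthesis are described here in whole lungs of wild-type (WT) BALB/c mice, an inbred laboratory strain, given PM2.5 (fine airborne particulate matter) or PBS (buffered saline). The set was chosen by gene symbol. It holds 32 genes of the mevalonate pathway, cholesterol synthesis, fatty acid synthesis and the SREBP regulators, and all 32 were found among the 18875 genes of the deposited table. The long-term PM2.5 group was given 10 mg/kg into the nose 6 times, with 3 days between doses. The short-term PM2.5 group was given that dose 1 time. The PBS group is labelled as a long-term exposure to PBS, so the short-term group had no PBS control of its own duration among these samples. Each group had 3 libraries, and whether these were separate mice is not stated in the labels. The p-values therefore speak only for differences beyond library-to-library spread, which may be technical. The age and sex of the mice and the time from the last dose to collection are not given in the sources used here.

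Cells make cholesterol from acetyl-CoA through the mevalonate pathway and a chain of enzymes that turn squalene into sterols. They make fatty acids with acetyl-CoA carboxylase and fatty acid synthase, and modify them with elongases and desaturases. Both pathways are switched on by the transcription factors SREBP-1 and SREBP-2, which Scap carries out of the endoplasmic reticulum when sterols are low and which Insig1 holds back when sterols are high. In the lung, alveolar type 2 cells make lipid for surfactant, and alveolar macrophages take it up and break it down.

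SREBP binding sites in the promoters of such genes often lie close to a CCAAT box, the binding sequence of NF-Y, so the promoters were searched for both. RefSeq promoter windows on GRCm38.p6, from 250 bases before to 50 bases after a gene's start, were matched by symbol for 25 of the 32 genes. The letters CCAAT, on either strand, occurred in at least 1 window of 21 of these 25 genes (84.0%) and of 41.1% of all 27025 genes with a window. The sterol element searched, TCACNCCAC on either strand, occurred in 1 of the 25 genes (4.0%), Hmgcs1, and in 1.44% of all genes. A shorter form, CACNCCAC, which was chosen after these counts were seen and is contained in the longer one, occurred in Hmgcs1 and Insig1 (8.0%) and in 7.12% of all genes. These matches describe the letters in the windows only. The windows of Mvd, Tm7sf2, Ebp and Fasn, all called higher in long-term than in PBS lungs, are shown. That of Hmgcs1, the one with the sterol element, is shown as well. All are given 5′ to 3′ on the strand of the gene, with CCAAT, its reverse complement and the sterol element in capitals. Mvd lies on the minus strand at chr8:122443373-122443672, Tm7sf2 on the minus strand at chr19:6067801-6068100, Ebp on the minus strand at chrX:8193463-8193762, Fasn on the minus strand at chr11:120824498-120824797 and Hmgcs1 on the plus strand at chr13:119690101-119690400.
Mvd promoter: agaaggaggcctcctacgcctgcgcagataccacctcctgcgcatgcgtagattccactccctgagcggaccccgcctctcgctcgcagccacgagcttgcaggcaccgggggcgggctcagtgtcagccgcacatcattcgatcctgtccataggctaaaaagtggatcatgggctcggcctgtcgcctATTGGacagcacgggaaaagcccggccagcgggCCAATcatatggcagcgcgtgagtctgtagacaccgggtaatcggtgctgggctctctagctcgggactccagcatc
Tm7sf2 promoter: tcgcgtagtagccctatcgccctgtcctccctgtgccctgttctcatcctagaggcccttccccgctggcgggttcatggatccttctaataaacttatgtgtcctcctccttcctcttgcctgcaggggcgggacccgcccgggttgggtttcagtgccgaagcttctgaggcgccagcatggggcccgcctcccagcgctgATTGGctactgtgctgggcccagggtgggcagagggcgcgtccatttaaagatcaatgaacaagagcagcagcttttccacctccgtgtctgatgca
Ebp promoter: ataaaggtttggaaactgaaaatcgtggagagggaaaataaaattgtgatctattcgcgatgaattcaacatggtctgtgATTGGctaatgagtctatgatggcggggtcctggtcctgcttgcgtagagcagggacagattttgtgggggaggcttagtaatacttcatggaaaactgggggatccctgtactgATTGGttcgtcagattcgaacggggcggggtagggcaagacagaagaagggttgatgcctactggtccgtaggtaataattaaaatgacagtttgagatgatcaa
Fasn promoter: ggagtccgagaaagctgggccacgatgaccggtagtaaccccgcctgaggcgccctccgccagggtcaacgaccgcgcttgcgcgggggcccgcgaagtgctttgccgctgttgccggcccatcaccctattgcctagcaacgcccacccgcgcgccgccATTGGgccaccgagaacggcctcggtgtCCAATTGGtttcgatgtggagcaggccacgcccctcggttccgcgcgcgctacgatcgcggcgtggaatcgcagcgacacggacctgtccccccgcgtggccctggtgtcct
Hmgcs1 promoter: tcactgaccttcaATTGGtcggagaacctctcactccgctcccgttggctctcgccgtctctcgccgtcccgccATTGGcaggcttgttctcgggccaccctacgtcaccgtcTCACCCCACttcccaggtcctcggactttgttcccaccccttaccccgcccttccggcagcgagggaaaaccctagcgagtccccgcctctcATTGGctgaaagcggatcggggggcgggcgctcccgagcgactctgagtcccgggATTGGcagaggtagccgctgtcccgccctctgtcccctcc
The capitals mark 2 CCAAT boxes in the Mvd window, 1 in Tm7sf2, 2 in Ebp, 3 in Fasn (2 of them overlapping on opposite strands) and 4 in Hmgcs1. The single sterol element of Hmgcs1 stands between a pair of CCAAT boxes on either side of it. Of the 8 genes called higher in long-term than in PBS lungs, Fdps, Fdft1 and Scd1 are named only, and the window of Dhcr7 is not shown.

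Expression was given as TPM, a share of all transcripts corrected for their length and scaled to the same total in every library. All 32 genes passed the filter on low values (1 TPM or more in 3 or more libraries), as did 13991 genes in all. The highest group mean was that of Scd1 in every group, at 1017 TPM after long-term PM2.5, 163 TPM after short-term PM2.5 and 304 TPM with PBS. The median over the 32 group means was 38.4, 32.9 and 34.9 TPM in the same groups. Sftpc, the surfactant protein C gene of alveolar type 2 cells and a defining gene of lung, stood at 19628 to 38597 TPM in all libraries. The short-term libraries stood apart. Genes with the longest 10% of transcripts, set against those with the shortest 10%, differed from PBS by a median of -1.68, -0.81 and -1.03 on the log2 scale in short-term replicates 1, 2 and 3. In long-term libraries this contrast lay between -0.21 and -0.13, and among PBS libraries between -0.056 and 0.042. The median log2 difference of all genes from the PBS mean was -0.60, -0.13 and -0.29 in short-term replicates 1 to 3, and -0.039 to 0.094 in the other 6 libraries. Of the 32 genes, 29 were lowest within the short-term group in replicate 1. Calls that rest on these libraries are therefore given both as deposited and after removing trends with transcript length and GC content, a correction that also centres each library.

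**Figure D1:**
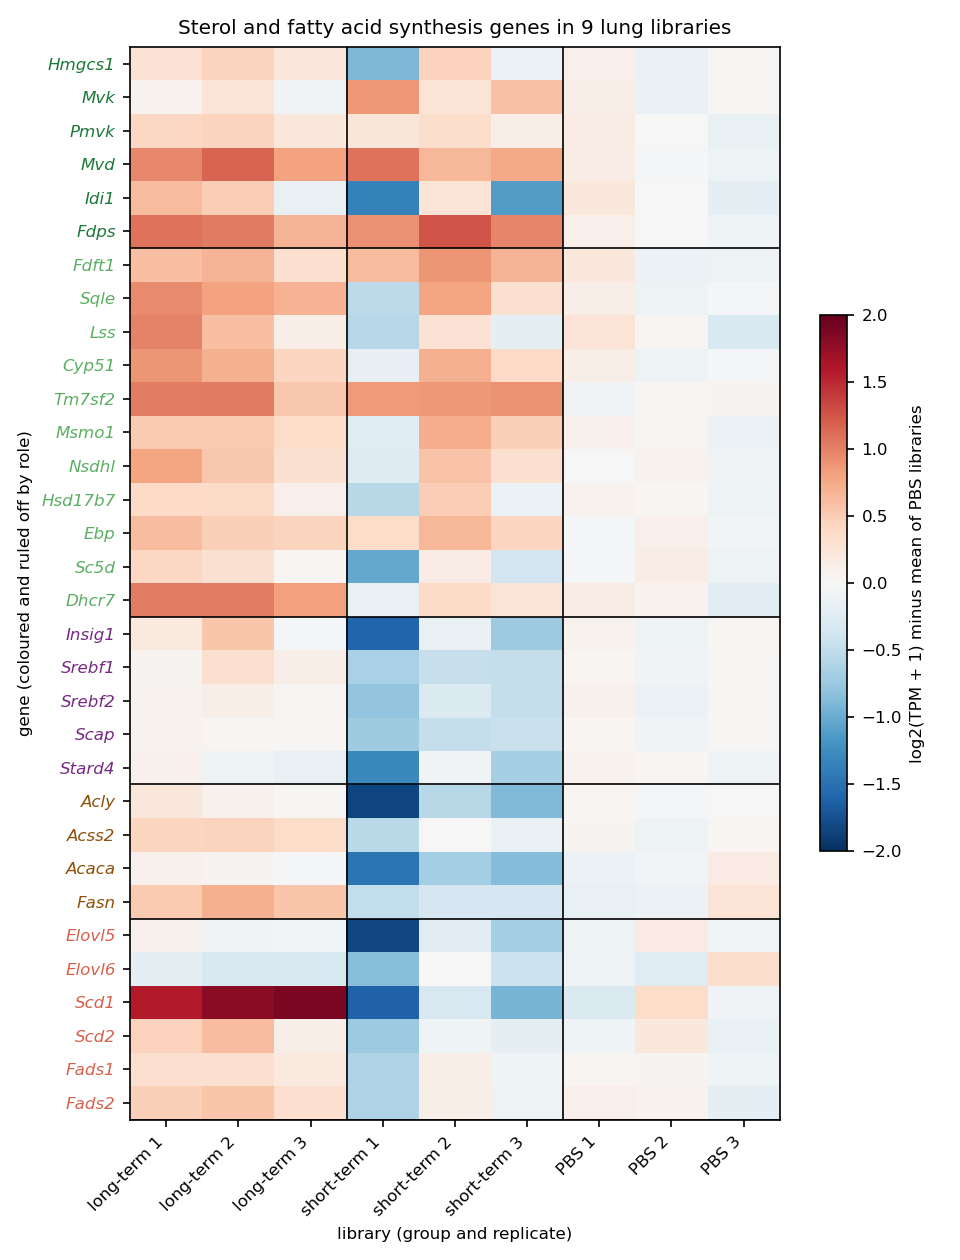
Each cell is the log2(TPM + 1) of 1 gene (rows, by role) in 1 library (columns), minus the mean of the 3 PBS libraries, on a colour scale from -2 (blue) to 2 (red). Scd1 is the darkest red row in the long-term libraries, Fdps, Mvd and Tm7sf2 are red in both PM2.5 groups, and short-term replicate 1 is the bluest column.

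Long-term PM2.5 against PBS asked which of these genes changed after repeated instillation. Of the 17 sterol enzymes 6 were higher, as were the fatty acid synthase gene and the desaturase gene Scd1, and no gene of the set passed as lower. In the limma test on log2(TPM + 1), 8 of the 32 genes were higher at an adjusted p under 0.05, against 9.51% of all tested genes, and 0 were lower, against 1.72%. At an unadjusted p under 0.05 these were 14 higher and 0 lower, beside 2239 higher and 858 lower of all 13991 tested genes. The median log2 fold change of the 32 genes was 0.38, beside 0.03 for all tested genes, and 29 of the 32 were above 0. The 3 long-term libraries lay wholly above the PBS libraries for 19 of the 32 genes, and the groups did not overlap for 43.2% of all genes in either direction.

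Scd1 makes monounsaturated fatty acids from saturated ones. It had 902, 1048 and 1100.3 TPM in the long-term libraries, against 243, 385 and 285 TPM in the PBS libraries. All long-term values were above every PBS value, and the log2 fold change was 1.76 ± 0.28 (± SE, adjusted p = 0.00256 in limma). Its paralog Scd2 had 219, 245 and 175 TPM in long-term lungs and 151, 184 and 145 TPM in PBS lungs, with a log2 fold change of 0.40 ± 0.19 (adjusted p = 0.241 in limma) and groups that overlapped. The ratio of Scd1 to Scd2 within a library was 4.13, 4.28 and 6.28 in long-term lungs, against 1.61, 2.09 and 1.96 in PBS lungs. An exact two-sided permutation test of this ratio gave p = 0.1, the smallest p that 3 against 3 libraries allow, and the pair was chosen after its values were seen. Ratios of 3 gene pairs were tested in 3 comparisons, 9 tests in all, none of which could pass. Scd1 and Scd2 are near-identical in part, and reads may have been split between them, so the size of each change is uncertain. Of the close copies on the pathway list, Scd3 was under the filter, and Scd4 did not pass (log2 fold change 0.16, adjusted p = 0.578).

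Among the mevalonate enzymes, 2 of 6 passed, and all 6 had a fold change above 0 (median 0.34). Mvd, which forms isopentenyl pyrophosphate, had 36.4, 42.0 and 32.6 TPM in long-term lungs, against 20.3, 17.6 and 16.8 TPM in PBS lungs. Fdps, which forms farnesyl pyrophosphate, had 123, 120.3 and 93.0 TPM in long-term lungs, against 61.8, 57.2 and 54.6 TPM in PBS lungs. Neither gene's groups overlapped, and the log2 fold changes were 0.98 ± 0.15 for Mvd and 0.93 ± 0.14 for Fdps (± SE, limma adjusted p = 0.00232 and 0.00189). The other 4 did not pass. Hmgcs1, HMG-CoA synthase, averaged 43.2 ± 3.94 TPM in long-term lungs and 34.6 ± 2.88 TPM in PBS lungs (SD, n = 3 each). Pmvk, phosphomevalonate kinase, averaged 53.2 ± 4.77 and 41.5 ± 4.27 TPM in the same order, and Idi1, which isomerises isopentenyl pyrophosphate, 7.64 ± 2.31 and 5.76 ± 0.968 TPM. Mvk, mevalonate kinase, had the smallest fold change of the 6, at 0.09 ± 0.16 (adjusted p = 0.864 in limma).

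Of the 11 enzymes from squalene to cholesterol, 4 passed as higher and all 11 had a fold change above 0 (median 0.55). Dhcr7, the last reductase of the pathway, had 30.9, 30.9 and 26.4 TPM in long-term lungs, against 16.2, 15.4 and 12.5 TPM in PBS lungs. Tm7sf2, a sterol C14-reductase, had 16.0, 16.1 and 11.2 TPM in long-term lungs, against 6.94, 7.48 and 7.71 TPM in PBS lungs. The long-term values of both genes lay above every PBS value, with log2 fold changes of 0.96 ± 0.17 for Dhcr7 and 0.87 ± 0.16 for Tm7sf2 (± SE, limma adjusted p = 0.00477 and 0.00596). Ebp, a sterol isomerase, had 59.9, 54.0 and 53.0 TPM in long-term lungs, against 37.6, 41.7 and 37.0 TPM in PBS lungs. Fdft1, squalene synthase, had 32.7, 34.5 and 26.9 TPM in long-term lungs, against 24.9, 19.5 and 19.8 TPM in PBS lungs. Their groups did not overlap either, but the differences were smaller, at 0.51 ± 0.12 for Ebp and 0.53 ± 0.15 for Fdft1 (adjusted p = 0.021 and 0.0426 in limma).

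The other 7 enzymes of this stretch did not pass, with log2 fold changes from 0.25 for Sc5d to 0.81 for Sqle. Sqle, squalene epoxidase, had 34.9, 31.6 and 29.2 TPM in long-term lungs, against 19.4, 16.5 and 17.3 TPM in PBS lungs. Its groups did not overlap, and its adjusted p was 0.0886 in limma. The fit shares 1 estimate of spread with the short-term libraries, where Sqle had 11.95, 31.4 and 22.3 TPM. Cyp51, lanosterol demethylase, stood likewise, with 19.1, 16.8 and 13.7 TPM in long-term lungs, against 10.9, 9.13 and 9.71 TPM in PBS lungs (adjusted p = 0.0828 in limma). After the length and GC correction Sqle, Cyp51, Nsdhl and the acetyl-CoA synthetase gene Acss2 also passed. That made 12 higher (13.1% of all genes) and 0 lower (12.9%), with all 8 genes of the deposited scale among the 12.

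**Figure D2:**
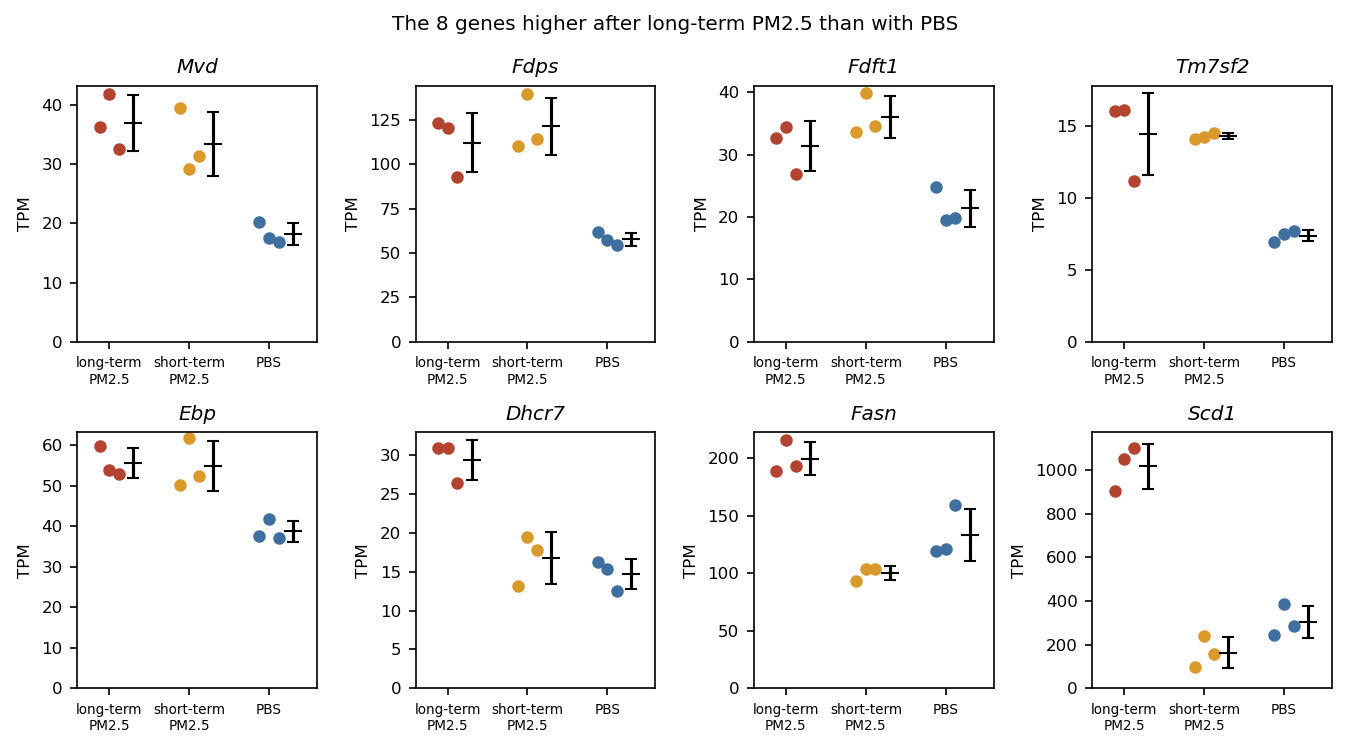
TPM (linear axes from 0) of the 8 genes called higher after long-term PM2.5, with 1 point for each library and the mean ± SD of the 3 libraries beside the points. Mvd, Fdps, Fdft1, Tm7sf2 and Ebp are also above PBS in all short-term libraries, whereas Fasn and Scd1 are below all PBS libraries there.

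Of the genes that supply acetyl-CoA and build fatty acids, 1 of 4 passed. Fasn, fatty acid synthase, had 189, 216 and 193 TPM in long-term lungs, against 119, 121 and 159 TPM in PBS lungs. The groups did not overlap, and the log2 fold change was 0.59 ± 0.13 (± SE, adjusted p = 0.0143 in limma). Acss2 averaged 28.9 ± 0.919 TPM in long-term lungs and 21.5 ± 1.34 TPM in PBS lungs (SD, n = 3 each), with an adjusted p of 0.125 in limma. Acly, ATP citrate lyase, and Acaca, acetyl-CoA carboxylase 1, had log2 fold changes of 0.12 ± 0.26 and 0.04 ± 0.20 and overlapped PBS. The ratio of Fasn to Acaca, both with long transcripts, was 9.62, 11.3 and 10.7 in long-term lungs, against 7.08, 6.83 and 7.63 in PBS lungs (exact two-sided permutation p = 0.1, the smallest possible, pair chosen after its values were seen). The 2 transcripts differ in GC content, at 57.9% for Fasn and 49.2% for Acaca, so the ratio is not free of a trend with GC.

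Elongases and desaturases other than Scd1 did not pass. Fads2 and Fads1, the desaturases of polyunsaturated fatty acid synthesis, averaged 72.4 ± 5.63 and 96.6 ± 4.99 TPM in long-term lungs. In PBS lungs they averaged 52.6 ± 5.48 and 79.6 ± 4.35 TPM (SD, n = 3 each), with adjusted p of 0.153 and 0.417 in limma. Elovl5 and Elovl6, fatty acid elongases, had log2 fold changes of -0.02 ± 0.31 and -0.27 ± 0.23. Elovl6 was among the lowest genes of the set, at 2.60, 2.29 and 2.31 TPM in long-term lungs and 2.80, 2.45 and 4.20 TPM in PBS lungs, with overlapping groups.

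None of the 5 genes of SREBP regulation and sterol transport passed after long-term PM2.5, and at an unadjusted p under 0.05 in limma there were 0 as well (median log2 fold change 0.07). Srebf1, which encodes SREBP-1, averaged 81.0 ± 7.72 TPM in long-term lungs and 72.0 ± 2.78 TPM in PBS lungs (SD, n = 3 each). Srebf2, which encodes SREBP-2, averaged 92.0 ± 2.504 and 87.5 ± 6.16 TPM, and Scap 36.9 ± 0.682 and 35.7 ± 1.46 TPM, in the same order. Insig1, itself a target of SREBP, had 47.2, 61.1 and 40.0 TPM in long-term lungs and 43.6, 38.2 and 42.3 TPM in PBS lungs, and these overlapped. Stard4, a carrier of cholesterol between membranes, had a log2 fold change of -0.06 ± 0.26.

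On GRCm38.p6, Scd1 lies at chr19:44394450-44407709, Fasn at chr11:120805958-120825166, Fdps at chr3:89093588-89101967 and Mvd at chr8:122433596-122443422. Dhcr7 lies at chr7:143823167-143848410, Tm7sf2 at chr19:6062821-6067850, Ebp at chrX:8185329-8193512 and Fdft1 at chr14:63145150-63181687. Mvd, Fdps, Tm7sf2, Dhcr7 and Scd1 kept their long-term calls in all 19 alternatives, those without 1 library among them. Fdft1 lost its call without long-term replicate 1 or 2, short-term replicate 3, or PBS replicate 2 or 3 (adjusted p from 0.0712 to 0.180 in limma). Ebp lost it without any 1 long-term replicate or PBS replicate 1 or 3 (0.0527 to 0.111), and Fasn without long-term replicate 2 or PBS replicate 1 or 2 (0.0640 to 0.0796). With the replicate number as a block, Fdft1 and Ebp did not pass (adjusted p = 0.0804 and 0.0524). The count of genes higher was 5 without long-term replicate 2 and 16 without short-term replicate 1, which added Pmvk, Sqle, Cyp51, Msmo1, Nsdhl, Acss2, Scd2 and Fads2. Over all tested genes 887 and 2152 were higher in these 2 fits, beside 1330 with all libraries.

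In a bulk sample, more cells of a type and more RNA per cell cannot be told apart. Markers of lipid-laden macrophages were higher in 8 of 11 in long-term against PBS lungs, and their summed level was 2362 to 3060 TPM in long-term lungs and 1123 to 1225 TPM in PBS lungs. Alveolar macrophage markers were higher in 8 and lower in 1 of 12 (summed 1490 to 1779 TPM in long-term lungs, 733 to 1014 TPM in PBS lungs). Markers of dividing cells were higher in all 11 tested of 12 (97.0 to 159 and 33.6 to 38.4 TPM), of goblet cells in all 8 tested of 9 (267 to 332 and 14.9 to 24.8 TPM) and of ciliated cells in 9 of 10 (1726 to 2198 and 1516 to 1863 TPM). Markers of alveolar type 2 cells were higher in 1 of 11, and their sum was 49312 to 51965 TPM in long-term lungs and 46083 to 47228 TPM in PBS lungs. Most of this sum was Sftpc, which averaged 37560 TPM in long-term lungs and 35437.5 TPM in PBS lungs. Lung fibroblast markers were lower in 3 of 8 (5329 to 5896 and 6494 to 7469 TPM). Adipocyte markers, of a tissue rich in Scd1 and Fasn, passed in 0 of 10 tested of 11, with 1 higher and 2 lower at an unadjusted p under 0.05 in limma. They summed to 92.7 to 123 TPM in long-term lungs and 93.6 to 233 TPM in PBS lungs. The 233 TPM was PBS replicate 3 alone, with 113 and 93.6 TPM in PBS replicates 1 and 2. PBS replicate 3 also had the highest PBS value of Fasn (159 TPM), whereas that of Scd1 was in PBS replicate 2 (385 TPM). Hepatocyte markers were higher in 1 of 2 tested of 10, namely Ahsg, which averaged 2.15 TPM in long-term lungs and 0.343 TPM in PBS lungs. They summed to 9.37 to 10.8 TPM in long-term lungs and 6.73 to 11.7 TPM in PBS lungs, with Fgb listed at 0 in all 9 libraries. Of all tested genes 9.51% were higher and 1.72% lower in this comparison. The part of these cell types in the changes of the 32 genes was not tested.

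Short-term PM2.5 against PBS asked which genes changed after 1 instillation, with the reservation that the PBS group is labelled as a long-term exposure. On the deposited scale the genes that passed as higher and those that passed as lower had different roles. Of the 17 sterol enzymes 6 passed as higher and 0 as lower, of the 5 genes of SREBP regulation and sterol transport all 5 passed as lower, and of the 10 fatty acid, elongation and desaturation genes 5 passed as lower and 0 as higher. In limma, 6 of the 32 genes were thus higher, against 11.7% of all tested genes, and 10 were lower, against 40.3%. The median log2 fold change was 0.24 for the 17 sterol enzymes, -0.54 for the 5 regulators, -0.70 for the 4 acetyl-CoA and fatty acid synthesis genes and -0.38 for the 6 elongases and desaturases, beside -0.34 for all tested genes. The groups did not overlap for 15 of the 32 genes, 6 of them higher, against 60.3% of all genes in either direction. The same division ran with transcript length. The 6 higher genes had transcripts of 1382 to 3698 bases (median 1702), and the 10 lower ones of 2697 to 10050 bases (median 4629).

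**Figure D3:**
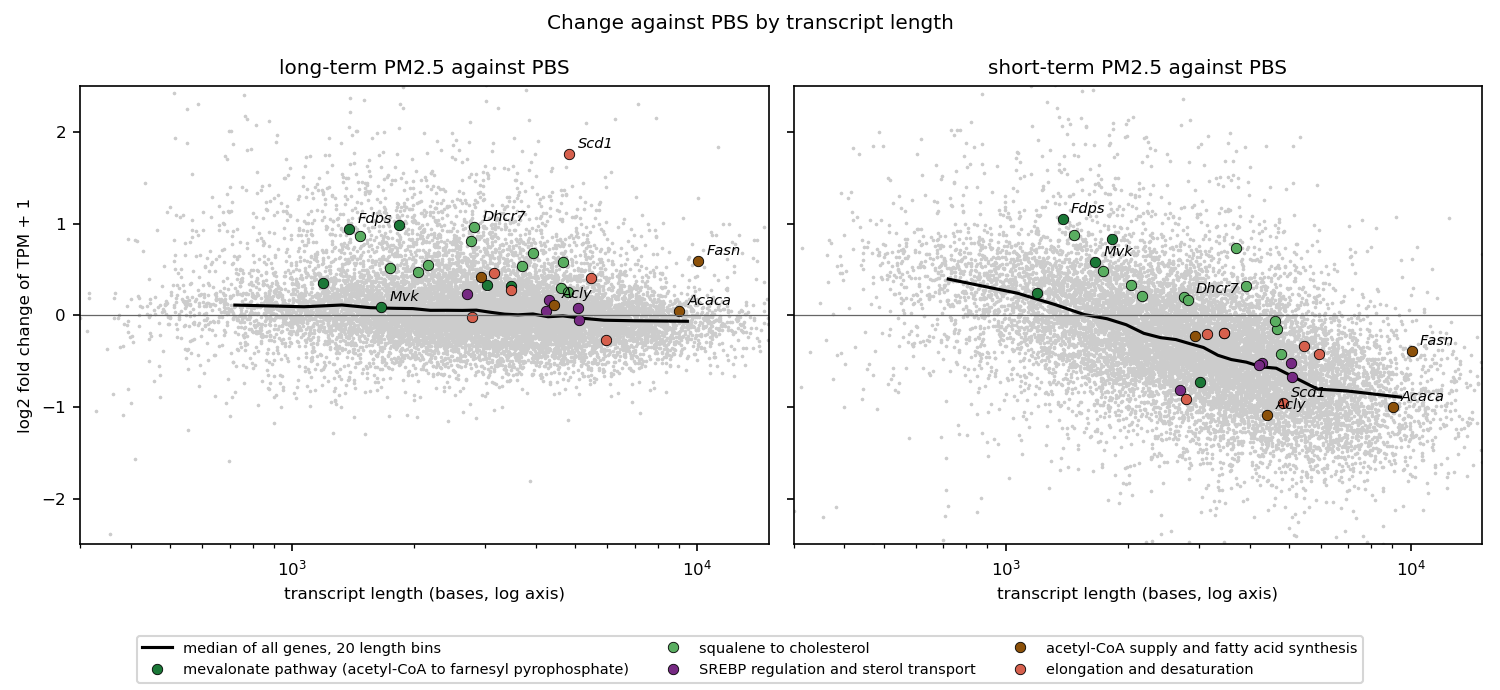
Log2 fold change of TPM + 1 against PBS (y axis) by transcript length (x axis, log scale) for all tested genes (grey), their median in 20 length bins (black line) and the 32 genes coloured by role, for long-term PM2.5 (left) and short-term PM2.5 (right). The black line is nearly flat on the left and falls with length on the right, where Acaca lies near it, Acly below it and Fasn above it.

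All 6 higher genes had short-term values above every PBS value. Fdps had 110.3, 139.9 and 114 TPM in short-term lungs, against 61.8, 57.2 and 54.6 TPM in PBS lungs, the largest increase of the set on the deposited scale (1.05 ± 0.14, ± SE, adjusted p = 0.000478 in limma). Tm7sf2 had 14.1, 14.3 and 14.5 TPM in short-term lungs, against 6.94 to 7.71 TPM in PBS lungs (0.87 ± 0.16). Mvd had 39.6, 29.2 and 31.5 TPM in short-term lungs, against 16.8 to 20.3 TPM in PBS lungs (0.83 ± 0.15). These increases were also seen in the long-term lungs, which share the PBS libraries. Fdft1 had 33.6, 40.0 and 34.6 TPM in short-term lungs (0.73 ± 0.15), Mvk had 68.7, 45.4 and 56.3 TPM (0.57 ± 0.16), and Ebp had 50.3, 61.9 and 52.5 TPM (0.49 ± 0.12). For Mvk, the PBS libraries held 40.4, 33.8 and 37.9 TPM. All 6 stayed higher after the length and GC correction, with log2 fold changes from 0.50 for Ebp and Mvk to 1.14 for Fdft1, and in limma only Mvk lost its call without 1 library (PBS replicate 2, adjusted p = 0.0527).

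The correction extended the sterol group. A further 7 sterol enzymes passed as higher after it, namely Sqle, Cyp51, Msmo1, Nsdhl, Hsd17b7, Sc5d and Dhcr7, with corrected log2 fold changes from 0.27 for Sc5d to 0.88 for Cyp51. Of the 17 sterol enzymes 13 were then higher and 0 lower. Over the 32 genes 15 were higher, against 23.8% of all genes, and 2 were lower, against 26.1%. Hsd17b7 and Sc5d, whose fold changes on the deposited scale were -0.06 ± 0.23 and -0.42 ± 0.25, turned direction, to 0.61 ± 0.11 and 0.27 ± 0.10. Cyp51 had 8.74, 16.9 and 13.4 TPM in short-term lungs, against 9.13 to 10.9 TPM in PBS lungs, with short-term replicate 1 below the PBS libraries and the other two above them.

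Of the 10 genes lower on the deposited scale, Acly and Elovl5 stayed lower after the correction. Acly had 26.4, 65.7 and 51.7 TPM in short-term lungs, against 98.6, 94.5 and 96.4 TPM in PBS lungs. All short-term values were below PBS, with a log2 fold change of -1.09 ± 0.26 (± SE, adjusted p = 0.00643 in limma) and of -0.57 ± 0.15 corrected (adjusted p = 0.00938), and the call was kept in all 19 alternatives. Elovl5 had 25.9, 80.4 and 58.1 TPM in short-term lungs, against 87.3, 105 and 90.3 TPM in PBS lungs (-0.91 ± 0.31, corrected -0.53 ± 0.16). Its call was lost without any 1 PBS library (adjusted p from 0.0655 to 0.101 in limma).

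The other 8 did not stay lower, and with median-ratio scaling 7 of the 10 calls were lost, all but those of Acly, Acaca and Scd1. Scd1 had 96.2, 239 and 155 TPM in short-term lungs, against 243 to 385 TPM in PBS lungs, a log2 fold change of -0.96 ± 0.28 (adjusted p = 0.0167 in limma). After the correction it was -0.27 ± 0.18 (adjusted p = 0.227), and without PBS replicate 2 the deposited scale gave an adjusted p of 0.0710. Acaca had 6.01, 11.1 and 9.60 TPM in short-term lungs, against 16.9, 17.7 and 20.8 TPM in PBS lungs. Its fold change of -1.01 ± 0.20 became -0.10 ± 0.09 (adjusted p = 0.376 in limma). Fasn, with 93.4, 103.8 and 103.9 TPM in short-term lungs against 119 to 159 TPM in PBS lungs, changed direction, from -0.39 ± 0.13 on the deposited scale to 0.41 ± 0.11 corrected (adjusted p = 0.0278 and 0.00871 in limma). Its deposited call was also lost without short-term replicate 3 or PBS replicate 3 (adjusted p from 0.0507 to 0.111). The ratio of Fasn to Acaca was 15.5, 9.34 and 10.8 in short-term lungs, against 6.83 to 7.63 in PBS lungs (exact two-sided permutation p = 0.1, the smallest possible). It was highest in short-term replicate 1, the library with the strongest trend with transcript length. The 2 genes also differ in GC content (57.9% and 49.2%). The part of these library trends in the ratio was not tested.

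The 5 genes of SREBP regulation and sterol transport were all lower on the deposited scale, and none passed after the correction. With the correction and the replicate block together, Insig1 passed as lower (-0.48, adjusted p = 0.0419 in limma). Srebf1 had 45.8, 52.1 and 51.3 TPM in short-term lungs, against 74.0, 68.8 and 73.1 TPM in PBS lungs. Srebf2 had 49.96, 71.1 and 62.1 TPM in short-term lungs, against 93.0, 80.8 and 88.6 TPM in PBS lungs. Every short-term value of both was below PBS, and their fold changes of -0.53 ± 0.11 and -0.52 ± 0.13 became -0.06 ± 0.08 and 0.05 ± 0.09 (± SE, limma adjusted p = 0.556 and 0.678). Scap stood likewise (-0.54 ± 0.12 deposited, -0.08 ± 0.08 corrected). Insig1 had 13.1, 37.1 and 24.6 TPM in short-term lungs, against 38.2 to 43.6 TPM in PBS lungs, and its fold change was -0.82 ± 0.30 deposited and -0.48 ± 0.19 corrected (adjusted p = 0.041 and 0.0567 in limma). The deposited call of Insig1 was lost without long-term replicate 1, short-term replicate 1 or 3, or any 1 PBS library (adjusted p from 0.0564 to 0.105). That of Stard4, at -0.68 ± 0.26, was lost without any 1 library but short-term replicate 2 (0.0633 to 0.121).

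Without short-term replicate 2 the count of lower genes was 14, with Hmgcs1, Idi1, Sc5d and Elovl6 added, and without PBS replicate 2 or 3 it was 6. Without short-term replicate 1 the count of higher genes was 10, with Sqle, Cyp51, Msmo1 and Nsdhl added. Over all tested genes 5636 were lower with all libraries, 7240 without short-term replicate 2, and 4501 and 4116 without PBS replicate 2 and 3. Higher were 1632 of all tested genes with all libraries and 1957 without short-term replicate 1. Markers of alveolar type 2 cells were higher in 2 and lower in 3 of 11 in short-term against PBS lungs, and summed to 33312 to 39605 TPM in short-term lungs and 46083 to 47228 TPM in PBS lungs. Most of this sum was Sftpc, which averaged 22759 TPM in short-term lungs and 35437.5 TPM in PBS lungs. Sftpd went the other way, averaging 2532 and 936 TPM. The log2 fold change was above 0 for 4 of the 11 markers and below 0 for 7. Alveolar macrophage markers were higher in 1 and lower in 6 of 12 (447 to 652 and 733 to 1014 TPM), and lipid-laden macrophage markers higher in 7 and lower in 1 of 11 (1488 to 1863 and 1123 to 1225 TPM). Lung fibroblast markers were lower in 7 of 8 (3049 to 4127 and 6494 to 7469 TPM), ciliated cell markers higher in 1 and lower in 4 of 10 (824 to 1319 and 1516 to 1863 TPM), and adipocyte markers lower in 4 of 10 tested (82.4 to 129 and 93.6 to 233 TPM, the 233 TPM in PBS replicate 3 alone). Dividing cell markers were higher in 5 of 11 tested (48.8 to 64.6 and 33.6 to 38.4 TPM) and goblet cell markers in 2 of 8 tested (22.9 to 40.4 and 14.9 to 24.8 TPM). Of all tested genes 11.7% were higher and 40.3% lower on this scale. After the correction, dividing cell markers were higher in 10 of 11 and goblet cell markers higher in 5 and lower in 1 of 8, against 23.8% higher and 26.1% lower among all genes. Alveolar type 2 markers were then higher in 5 and lower in 2 of 11, alveolar macrophage markers higher in 2 and lower in 8 of 12, and lipid-laden macrophage markers higher in 9 and lower in 1 of 11. Fibroblast markers were lower in 7 of 8, ciliated cell markers lower in 3 of 10, and adipocyte markers higher in 1 and lower in 3 of 10. Their part in the changes was not tested.

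**Figure D4:**
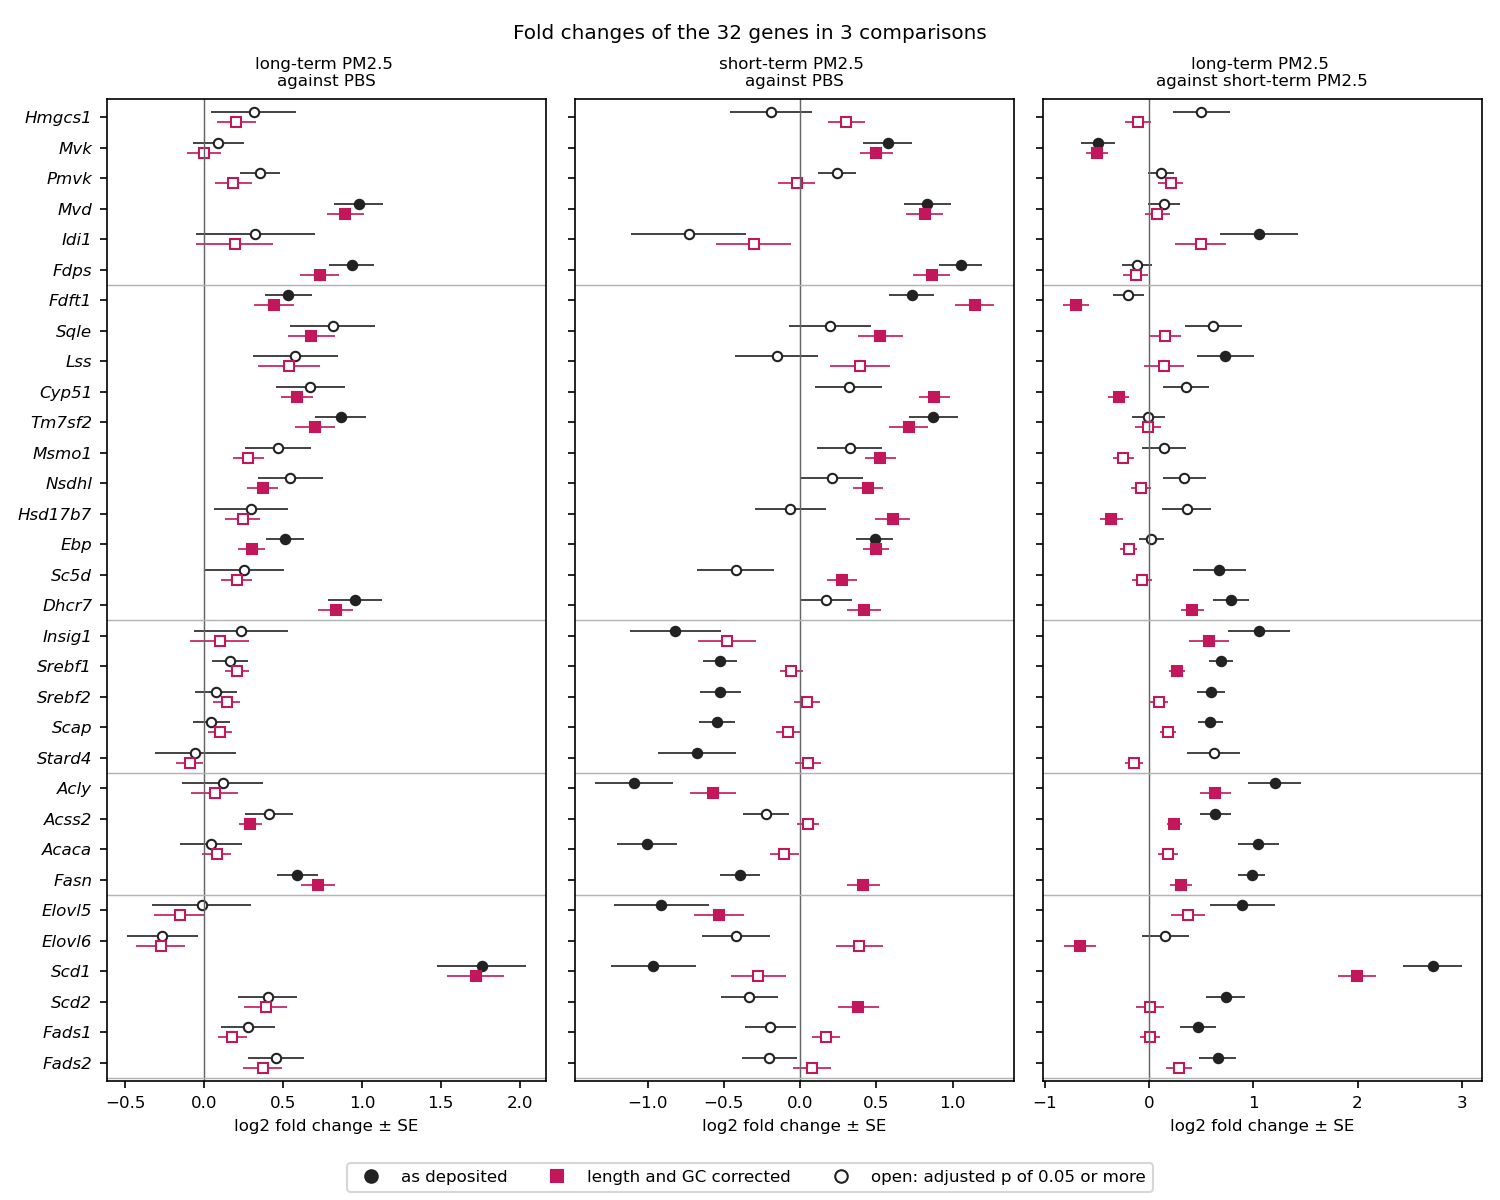
Log2 fold change ± SE (x axis) of each of the 32 genes (rows, ruled off by role) in the 3 comparisons, on the deposited scale (black circles) and after the length and GC correction (magenta squares), filled where the adjusted p was under 0.05. The 2 scales lie close together for long-term PM2.5 against PBS and, where short-term libraries are compared, close together for some genes (Mvd, Mvk) and apart for others, as for the long transcripts of Acaca, Fasn, Elovl6 and Stard4.

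Long-term against short-term PM2.5 compared the exposures directly, with no PBS library in the difference. Scd1 stood out, at 902, 1048 and 1100.3 TPM in long-term lungs and 96.2, 239 and 155 TPM in short-term lungs. The groups lay far apart, with a log2 fold change of 2.72 ± 0.28 (± SE, adjusted p = 0.000143 in limma) and of 1.996 ± 0.18 after the correction (adjusted p = 3.79e-05), kept in all 19 alternatives. Within a library, Scd1 exceeded Scd2 by 4.13 to 6.28 times in long-term lungs and 1.01 to 1.59 times in short-term lungs. On the deposited scale 17 of the 32 genes were higher, against 43.4% of all tested genes, and 1 was lower, against 7.08%. After the correction 7 were higher, against 19.2%, and 5 lower, against 22.2%. The groups did not overlap for 15 of the 32 genes, 14 of them higher, against 60.1% of all genes in either direction.

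The 7 genes higher on both scales were Scd1, Dhcr7, Insig1, Srebf1, Acly, Acss2 and Fasn. Dhcr7 had 30.9, 30.9 and 26.4 TPM in long-term lungs, against 13.1, 19.4 and 17.8 TPM in short-term lungs, and was the sterol enzyme among them (0.79 ± 0.17, corrected 0.42 ± 0.11). Acly had 114, 103 and 98.4 TPM in long-term lungs, against 26.4, 65.7 and 51.7 TPM in short-term lungs (1.20 ± 0.26, corrected 0.64 ± 0.15). Neither gene's groups overlapped, and both calls were kept in all 19 alternatives. Corrected log2 fold changes of the other 4 were 0.57 for Insig1, 0.31 for Fasn, 0.27 for Srebf1 and 0.24 for Acss2. Insig1 lost its deposited call without long-term replicate 2 (adjusted p = 0.0603 in limma), and Srebf1 lost it with median-ratio scaling (0.0606). With the correction and the replicate block together, Acss2 and Fasn did not pass (adjusted p = 0.0515 and 0.0586 in limma).

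The gene lower on both scales was Mvk, with 39.4, 44.6 and 35.6 TPM in long-term lungs, against 68.7, 45.4 and 56.3 TPM in short-term lungs. The groups did not overlap, and the log2 fold change was -0.49 ± 0.16 (adjusted p = 0.0291 in limma) and -0.50 ± 0.11 corrected. The deposited call was lost without long-term replicate 1 or 3 or short-term replicate 1 or 3 (adjusted p from 0.0534 to 0.102). Fdft1, Cyp51, Hsd17b7 and Elovl6 passed as lower after the correction but not on the deposited scale, at -0.70, -0.29, -0.36 and -0.66. Fdft1 also passed as lower with median-ratio scaling and quantile normalization (-0.58 and -0.49), and Elovl6 with quantile normalization (-0.42). Cyp51, Hsd17b7 and Elovl6 had fold changes above 0 on the deposited scale, so their direction between the exposures depends on the scale. Mvd, Fdps, Tm7sf2 and Ebp, higher than PBS in both exposures, did not pass between them on either scale, with deposited differences of 0.15 ± 0.15, -0.12 ± 0.14, -0.01 ± 0.16 and 0.02 ± 0.12, which do not show that they were equal. With median-ratio scaling Ebp and Fdps passed as lower in long-term lungs, at -0.36 and -0.50 (adjusted p = 0.0265 and 0.0114 in limma), and with quantile normalization Tm7sf2 did, at -0.47 (adjusted p = 0.039).

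The other 10 genes higher on the deposited scale did not pass after the correction. They were Idi1, Lss, Sc5d, Srebf2, Scap, Acaca, Elovl5, Scd2, Fads1 and Fads2, with deposited log2 fold changes from 0.47 for Fads1 to 1.05 for Idi1 and Acaca. The deposited calls of Idi1, Lss, Sc5d, Elovl5 and Fads1 were each also lost in 7 or 8 of the 9 fits without 1 library. They were kept without short-term replicate 2, and 23 genes were then higher (adjusted p of the lost calls from 0.0515 to 0.166 in limma). The count was 11 without long-term replicate 2, and 12 without any 1 PBS library, long-term replicate 1 or short-term replicate 3. Over all tested genes 6070 were higher with all libraries, 8057 without short-term replicate 2 and 4385 without long-term replicate 2.

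Markers of alveolar macrophages were higher in 11 of 12 in long-term against short-term lungs, of lipid-laden macrophages in 7 of 11, of lung fibroblasts in 8 of 8 and of ciliated cells in 10 of 10. Alveolar type 2 markers were higher in 5 and lower in 1 of 11, and adipocyte markers higher in 3 of 10 tested. Dividing cell markers were higher in 11 of 11 tested and goblet cell markers in 8 of 8 tested. Of all tested genes 43.4% were higher and 7.08% lower, and 19.2% and 22.2% after the correction. After the correction the counts were the same for alveolar macrophages, lipid-laden macrophages, ciliated cells and goblet cells. They were 6 of 8 higher for fibroblasts, 6 of 11 for dividing cells, 2 higher and 3 lower of 11 for alveolar type 2 cells, and 3 higher and 2 lower of 10 for adipocytes. The part of these cells in the differences was not tested.

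Neighbouring genes of the pathways, from lists written down with earlier results of these data known, were tested in the same fit. Of 14 tested further genes of sterol synthesis and SREBP processing, 0 passed in long-term against PBS lungs in limma (1 higher and 0 lower at an unadjusted p under 0.05). The median log2 fold change was 0.08, and after the correction 0 were higher and 1 lower. Of all tested genes 9.51% were higher and 1.72% lower in that comparison, and 13.1% and 12.9% after the correction. In short-term against PBS lungs, 0 of these 14 were higher and 6 lower, where 40.3% of all genes were lower. After the correction 2 were higher and 3 lower, where 23.8% and 26.1% of all genes were. In long-term against short-term lungs 6 were higher and 0 lower, where 43.4% of all genes were higher. After the correction 2 were higher and 1 lower, where 19.2% and 22.2% of all genes were. Pgrmc1, a haem-binding partner of sterol enzymes, had 42.7, 116 and 78.0 TPM in short-term lungs, against 221, 202 and 213 TPM in PBS lungs, and was lower on both scales (-1.53, corrected -1.39). Its long-term values, 165, 157 and 166 TPM, were also below every PBS value, but did not pass on the deposited scale.

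Of 21 tested further genes of fatty acid and glycerolipid synthesis, 1 was higher and 0 lower in long-term against PBS lungs (median 0.10). Of all genes 9.51% and 1.72% were. After the correction 4 were higher and 2 lower, where 13.1% and 12.9% of all genes were. The gene higher on the deposited scale was Elovl1, the elongase of very long saturated fatty acids, with 444, 410.2 and 444 TPM in long-term lungs, 492, 408 and 464 TPM in short-term lungs and 286, 334 and 287 TPM in PBS lungs. Elovl1 was above PBS in both exposures (0.52 and 0.59, adjusted p = 0.0131 and 0.00239 in limma), and after the correction its long-term difference no longer passed (0.32, adjusted p = 0.108). In short-term against PBS lungs 2 were higher and 8 lower, where 11.7% and 40.3% of all genes were (6 and 7 after the correction, where 23.8% and 26.1% were). Thrsp, a lipogenic gene of fat and liver, was the lowest of them, with 6.23, 8.61 and 6.23 TPM in short-term lungs, against 22.9, 19.4 and 51.4 TPM in PBS lungs (-1.89, corrected -2.11). The 51.4 TPM was in PBS replicate 3, the library with the highest sum of adipocyte markers. Long-term values of Thrsp, 12.6, 15.6 and 15.2 TPM, were also below every PBS value, but did not pass on the deposited scale. In long-term against short-term lungs 9 were higher and 1 lower, where 43.4% and 7.08% of all genes were. After the correction 5 were higher and 5 lower, where 19.2% and 22.2% of all genes were. Acsl3, a long-chain acyl-CoA synthetase, had 13.6, 13.3 and 14.1 TPM in long-term lungs and 2.85, 6.56 and 4.37 TPM in short-term lungs (1.44, corrected 0.79).

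Of 19 genes of sterol efflux, storage and transport, 3 were higher and 0 lower in long-term against PBS lungs, and 6 and 3 after the correction. The shares of all genes were 9.51% and 1.72%, and 13.1% and 12.9% after the correction. At an unadjusted p under 0.05 in limma 8 of the 19 were higher and 1 lower, beside 2239 and 858 of all 13991 tested genes. In short-term against PBS lungs 3 were higher and 9 lower (4 and 7 after the correction), and in long-term against short-term lungs 11 were higher and 3 lower (9 and 4 after the correction). Of all genes, 11.7% were higher and 40.3% lower in short-term against PBS lungs (23.8% and 26.1% after the correction). Between long-term and short-term lungs these shares were 43.4% and 7.08% (19.2% and 22.2% after the correction). The 3 genes higher than PBS on the deposited scale were Ch25h, Cyp7b1 and Npc2 in each comparison, and the comparisons share the PBS libraries. Ch25h, which makes 25-hydroxycholesterol, an inhibitor of SREBP processing, had 28.7, 23.6 and 15.3 TPM in long-term lungs, 33.2, 35.8 and 29.1 TPM in short-term lungs and 3.23, 3.54 and 3.53 TPM in PBS lungs. Its values were far above PBS in all 6 exposed libraries, at 2.37 and 2.92 (adjusted p = 8.87e-05 and 1.49e-05 in limma). Cyp7b1, which breaks down 25-hydroxycholesterol, had 5.91, 4.56 and 4.15 TPM in long-term lungs, 6.47, 13.8 and 8.29 TPM in short-term lungs and 2.01, 2.34 and 2.20 TPM in PBS lungs. Abca1, the cholesterol exporter, had 11.3, 9.23 and 7.59 TPM in long-term lungs, 0.95, 3.75 and 2.51 TPM in short-term lungs and 8.21, 9.67 and 9.26 TPM in PBS lungs. It was lower in short-term against PBS lungs on both scales (-1.65, corrected -0.70), and its long-term values overlapped PBS.

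Of 19 genes of fatty acid oxidation, 0 passed in long-term against PBS lungs in limma (1 higher and 0 lower at an unadjusted p under 0.05), with a median of 0.03. Of all genes 9.51% were higher and 1.72% lower. After the correction 0 of the 19 were higher and 3 lower, where 13.1% and 12.9% of all genes were. In short-term against PBS lungs 1 was higher and 4 were lower, where 40.3% of all genes were lower. After the correction 4 were higher and 3 lower, where 23.8% and 26.1% of all genes were. In long-term against short-term lungs 1 was higher and 0 were lower, where 43.4% of all genes were higher. After the correction 1 was higher and 6 were lower, where 19.2% and 22.2% of all genes were.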

How the data were processed

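RNA of whole lung was selected with oligo(dT) beads, and libraries were treated with duplex-specific nuclease (DSN) and sequenced by DNBSEQ, per the labels' protocols. The nuclease depletes abundant transcripts, so the level of a gene as abundant as Scd1 may be understated. The authors deposited TPM values of 18875 genes in 9 libraries. HISAT2, Bowtie2 and RSEM were used with GRCm38.p6, per the submitters' processing notes, with no role or version given. Column sums differed by at most 1.09 TPM, so the read depth is unknown and no counting interval was computed.

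The 13991 genes that passed a minimum of 1 TPM in 3 or more libraries were fitted as log2(TPM + 1) over the 3 groups with limma 3.58.1 in R 4.3.3 (eBayes with intensity trend, 6 residual degrees of freedom, two-sided, Benjamini-Hochberg over all tested genes, threshold 0.05). Fold changes are on this scale, which understates those of low genes. The length and GC correction subtracted from each library natural splines (5 degrees of freedom each) in transcript length and GC content, fitted to its difference from the mean of all libraries. Lengths came from GENCODE M21, and 199 tested genes without one were left out. The pipeline was tested on simulated data. Permutation tests used scipy 1.17.1 in Python 3.11.15.

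The genes and all lists were chosen with earlier results of these data known. By rule, all 32 genes are accounted for, and of the pathway lists a few that passed. Values in every library were foreseen for the genes that passed, but are not printed for all of them. Idi1, Lss, Sc5d, Scap, Stard4, Acss2, Fads1 and Fads2 are given by means or fold changes, and some others in part. Alternatives were log2(TPM + 0.1), no filter, median-ratio scaling, a filter on mean TPM (5 or more), quantile normalization, the 2 compared groups alone, a replicate block, no intensity trend, the correction, and leaving out each library in turn.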

Additional observations from a re-analysis of the deposited data

Results flagged for a closer look

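For 18 of the 32 genes, long-term and short-term libraries differed in the limma test on the deposited scale. In long-term lungs 17 were higher and 1 was lower, beside 43.4% and 7.08% of all tested genes, so such differences were common in the whole table. After the length and GC correction 7 were higher and 5 lower, beside 19.2% and 22.2% of all genes. The difference, long-term minus short-term on the log2(TPM + 1) scale, was 2.72 for Scd1, 1.20 for Acly, 0.98 for Fasn, 0.79 for Dhcr7, 0.69 for Srebf1, 0.64 for Acss2, 1.05 for Insig1 and -0.49 for Mvk, and these 8 also passed after the length and GC correction. Scd1 and Fasn were above PBS after long-term PM2.5 and below PBS after short-term PM2.5 on the deposited scale, with both calls past the threshold, and after the correction the short-term difference was -0.27 for Scd1, which no longer passed, and 0.41 for Fasn, which passed as higher. The difference was 1.05 for Idi1, 1.05 for Acaca, 0.89 for Elovl5, 0.74 for Scd2, 0.73 for Lss, 0.68 for Sc5d, 0.66 for Fads2, 0.60 for Srebf2, 0.59 for Scap and 0.47 for Fads1, and none of these 10 passed after the correction.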

How the results depend on the processing

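Counts of genes that passed depended on the scaling. For long-term PM2.5 against PBS, 8 genes were higher, against 13 with median-ratio scaling, 14 with quantile normalization, 17 with the 2 compared groups alone, 14 with the length and GC correction and the replicate block together (chosen after seeing the data), and 5 to 16 with 1 library left out; 0 were lower in every alternative. For short-term PM2.5 against PBS, 6 were higher, against 12 with median-ratio scaling, 12 with quantile normalization, 15 corrected, 16 corrected with the block, and 5 to 10 with 1 library left out. There 10 were lower, against 3 with median-ratio scaling, 6 with the 2 groups alone, 2 corrected, 3 corrected with the block, and 6 to 14 with 1 library left out. Between long-term and short-term PM2.5, 17 were higher, against 7 with median-ratio scaling, 7 corrected, 6 corrected with the block, and 11 to 23 with 1 library left out, and 1 was lower, against 4 with median-ratio scaling, 4 with quantile normalization, 0 with the 2 groups alone, 5 corrected, 4 corrected with the block, and 0 to 1 with 1 library left out. Calls over all 13991 tested genes moved as well. For long-term PM2.5 against PBS, 1330 were higher, against 1467 with median-ratio scaling and 2500 with the 2 groups alone. For short-term PM2.5 against PBS, 1632 were higher and 5636 lower, against 3421 and 3885 with median-ratio scaling. Between the exposures 6070 were higher and 991 lower, against 3762 and 2756 with median-ratio scaling. The median of all tested genes moved from -0.34 to -0.05 with median-ratio scaling and to -0.02 corrected in the short-term comparison with PBS. Between the exposures it moved from 0.41 to 0.08 and to -0.03 in the same settings.

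Among genes that passed on at least 1 of the scales compared, directions turned after the correction for short-term PM2.5 against PBS in Hsd17b7 (0.61), Sc5d (0.27), Srebf2 (0.046), Stard4 (0.052), Fasn (0.41) and Scd2 (0.38), with the same values under the block, and in Lss with the block (0.39). Between long-term and short-term PM2.5 they turned in Cyp51 (-0.29), Hsd17b7 (-0.36), Sc5d (-0.068) and Elovl6 (-0.66), in Ebp with median-ratio scaling (-0.36) and in Elovl6 with quantile normalization (-0.42). Signs also turned in genes that passed on neither scale: fold changes below 0 went from 20 to 9 of the 32 genes in the short-term comparison with PBS, and from 4 to 13 between the exposures. The cause was not tested.

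The replicate block without the correction gave 6 higher and 0 lower for long-term PM2.5 against PBS, 6 and 9 in the short-term comparison with PBS, and 15 and 1 between the exposures. In the labels, samples of different groups share only a number. Deviations from the group means correlated from -0.29 to 0.26 between same-numbered libraries, and 1 of 9 libraries correlated best with its own number. With 3 libraries a group, whose deviations sum to 0, this cannot exclude a shared batch. TPM keeps no depth, so counting error could not be separated from the spread between libraries.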
